A study of Mus musculus with 4514 samples.

Results

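Hepatocytes labelled as an Xbp1 knockout started at postnatal day 12 form 1 pool of single cells, labelled P12_40d_Xbp1-KO_1 to P12_40d_Xbp1-KO_207. They were taken by their labels, group Xbp1-KO at the age P12+40d, and make up 16.9% of 1226 mouse liver cells sequenced with Smart-seq3, a method that gives each cell its own full-length cDNA library, in a series of 4514 samples. The reference is the pool labelled WT at the same age, cells P12_40d_WT_1 to P12_40d_WT_164. Further pools of that age are Nr2f2-KO (cells P12_40d_Nr2f2-KO_1 to P12_40d_Nr2f2-KO_165), Usf1-KO (63 cells) and Tef-KO (cells P12_40d_Tef-KO_1 to P12_40d_Tef-KO_126), so that the 5 pools hold 725 cells. In all 5 pools the genotype is given as Rosa-Cas9 (a Cas9 transgene at the Rosa locus), the tissue as liver and the cell type as hepatocyte. The labels name no animal and do not say how the guides were delivered or which cells were edited, so each pool is 1 sample and the Xbp1-KO pool against the WT pool has no test.

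XBP1 is the transcription factor of the most conserved branch of the unfolded protein response. The sensor IRE1, an enzyme of the endoplasmic reticulum (ER) membrane, removes a short intron from Xbp1 mRNA, and the spliced mRNA encodes the factor that raises chaperones, translocation and glycosylation machinery. IRE1 also cuts a small set of other mRNAs, a process called regulated IRE1-dependent decay, and in mouse liver lacking XBP1 that activity is known to be raised and lipid genes are known to be low. The best known decay substrate is Bloc1s1, and the carboxylesterases Ces1c to Ces1g are among those described in liver.

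The sequences below show what IRE1 recognises in Xbp1 and the same kind of loop in other mRNAs, because the substrates of IRE1 had the lowest median of the lists compared in this pool. The first is the Xbp1 mRNA around its unconventional intron (GENCODE M21, bases 464 to 519 of a coding sequence of 801 bases), with the 26 bases between the cuts in capitals. The others are coding-strand stretches of 27 bases with a loop of 7 bases in capitals that reads CNGCAGN and is flanked by a stem of at least 4 pairs, G-U pairs allowed.
Xbp1, intron: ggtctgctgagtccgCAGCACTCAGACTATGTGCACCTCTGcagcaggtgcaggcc
Xbp1, first loop (6 stem pairs): tctgctgagtCCGCAGCactcagacta
Xbp1, second loop (7 stem pairs): atgtgcacctCTGCAGCaggtgcaggc
Bloc1s1 (4 stem pairs): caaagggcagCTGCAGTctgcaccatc
Dgat2 (5 stem pairs): taggagtggcCTGCAGTgtcatcctca
Cyp2e1 (7 stem pairs): aaggcgttttCTGCAGGaaagcgcgtg
Such a loop stood in the coding sequence of 1625 of 21877 genes (7.43%) and of 483 of the 6170 genes compared below that had one (7.83%). It stood in 3 of the 13 genes of the IRE1 substrate list (Bloc1s1, Cyp2e1 and Cyp1a2), and none was found in the coding sequences of the Ces1 genes or Hgsnat. Dgat2 is not on that list and was searched in addition, as were Ssr4 and Dnajb9, in which no loop was found. A match is a description of letters, not a measured cut.

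The cells were deeply sequenced. The Xbp1-KO cells held 262992 to 1539276 counts each (median 767334) and a median of 8807 genes, and the WT cells a median of 854078 counts. Levels are means over cells of counts-per-million (CPM) without spike-ins, and folds are log2((Xbp1-KO CPM + 1)/(WT CPM + 1)), over 6598 genes with at least 10 CPM in either pool. Their median log2 fold was 0.03. Alb, Apoa1 and the other 8 hepatocyte markers were measured in every pool, and markers of other cells were low beside them. Summed over the list, endothelial markers stood at 13.1 CPM in Xbp1-KO and 10.5 in WT, and macrophage markers at 7.15 and 5.34. Cholangiocyte markers were at 68.8 against 32.9 CPM (24.4 to 146.2 in the other knockouts) and erythroid markers at 60.03 against 27.9 (35.6 to 72.7), higher than WT in both lists, while the bile duct keratins Krt19 and Krt7 and the epithelial Epcam had no count in Xbp1-KO. Most of these 2 sums came from 1 gene each, Spp1 (49.1 against 22.6 CPM) and Alas2 (48.4 against 25.7), and their part in the results was not tested. The number at the end of each cell's label also carried structure. Levels shifted at sharp breaks in that number, which divided the Xbp1-KO cells into 4 runs of 47, 72, 56 and 32 consecutive cells and the WT cells into 3 of 39, 56 and 69. The labels do not say what the numbers mean, the runs were found after the data were seen, and they serve here only to show how even a level is within a pool. Median depth of the 4 runs was 1083220, 537821, 829610 and 748540 counts per cell.

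Xbp1 mRNA itself was not lower in the cells labelled Xbp1-KO. Its level was 80.6 CPM, against 79.5 in WT, 79.5 in Nr2f2-KO, 133.02 in Usf1-KO and 117.45 in Tef-KO, and every cell of the Xbp1-KO and WT pools had a count, also after thinning to 200000 counts per cell. The summed pools held 13180 and 10826 Xbp1 counts, or 81.5 CPM (exact 95% Poisson interval 80.1 to 82.9) and 78.5 CPM (77.02 to 79.98), intervals that cover counting error only and not the spread between animals. By run it was 96.8, 80.5, 72.3 and 71.6 CPM in Xbp1-KO and 84.3, 66.5 and 87.4 in WT, so the pools overlapped. Counts per gene include mRNA with small Cas9 lesions and do not separate spliced from unspliced Xbp1 (chromosome 11, 5520659 to 5525893, GRCm38, plus strand), so this level does not check the label. Among the other sensors, Ern1, which encodes IRE1, stood at 23.7 CPM against 25.4 in WT, and the sensor Atf6 at 39.7 against 40.8. None of the 9 compared genes of that list differed 2-fold, and their median log2 fold was 0.02. The lowest folds of the list were those of Eif2ak3, which encodes the sensor PERK, and Creb3l2, a membrane-bound transcription factor. Eif2ak3 stood at 7.56 CPM against 12.4 and Creb3l2 at 18.7 against 31.5, and both were also lower than WT in Nr2f2-KO (4.61 and 15.7) and in Tef-KO (6.15 and 21.8).

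**Figure D1:**
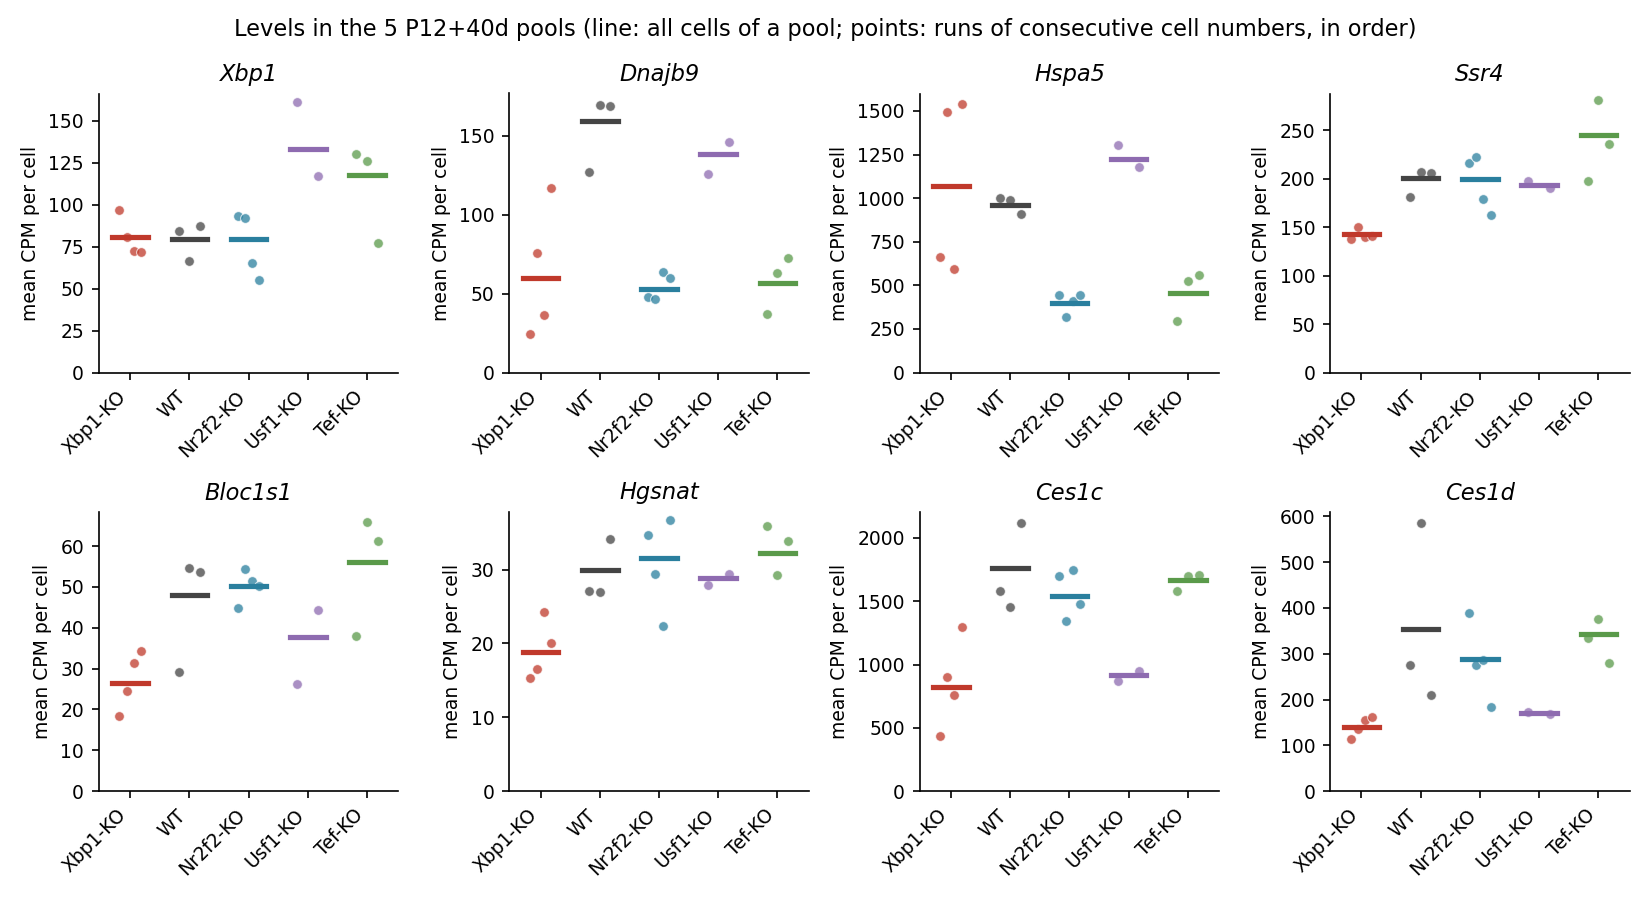
Mean CPM per cell of 8 genes in the 5 pools labelled P12+40d. Lines are means over all cells of a pool and points are means of the runs of consecutive cell numbers, in order; Xbp1 overlaps between Xbp1-KO (80.6) and WT (79.5), and all 4 Xbp1-KO points of Ssr4 lie between 137.4 and 150.3, below every point of the other pools.

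Between the pools, 61 of 6598 genes (0.925%) were at least 2-fold above WT and 52 (0.788%) at least 2-fold below. The corresponding shares against the same WT pool were 2.06% and 1.64% in Nr2f2-KO, 2.16% and 5.76% in Usf1-KO and 2.38% and 2.28% in Tef-KO. The comparisons share their WT cells, so a gene that is high or low in WT alone appears in several of them. Of the 61 higher genes, 31 were above all 4 other pools (17.3% of 6957 genes were, at any distance) and 12 were not 2-fold up in any other knockout pool. Of the 52 lower genes, 11 were below all 4 other pools (4.59% of genes were), namely Lpin1, Rgs16, Acss2, Frmd4b, Ces1f, Nrg4, Elovl6, Snhg11, Ces1d, Ces1c and 1 gene known only by a clone name. Only 4 of the 52, among them Ces1c, Ces1f and Nrg4, were not 2-fold down in any other knockout pool. For Ces1c and Ces1f the log2 fold of Usf1-KO was -0.94 and -0.95, just short of that limit. The Usf1-KO median over all 6598 genes was itself -0.32. At least 2-fold outside all 4 other pools at once were 7 genes above (0.101% of 6957) and 1 below (0.0144%, Nrg4, a secreted growth factor).

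The edgeR quasi-likelihood test of the Xbp1-KO pool against the 4 other pools of its age called 0 of 13152 genes higher and 0 lower after Benjamini-Hochberg adjustment (smallest adjusted p = 0.744). It treats the lone pool as varying like the other 4, whose spread includes their own knockouts, and has 3 residual degrees of freedom. On simulated counts with the spread of these pools it missed nearly all 2-fold changes, so it cannot show that levels were alike. At an unadjusted p under 0.05 it listed 0.798% of the genes higher and 94 genes (0.715%) lower. DESeq2 on the same sums called 7 genes higher (Rhbg, Tnfaip3, Phlda1, Esco2, Myc, Serpine2 and Foxq1) and 2 lower, Bloc1s1 and the predicted gene Gm25501. Of these 9, the transcripts Rhbg, Phlda1, Serpine2, Foxq1 and Bloc1s1 are described by sample below.

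The substrates of IRE1 decay stood lower as a list. All 12 of its 13 genes that could be compared were below WT, with a median log2 fold of -0.89, and 5 were at least 2-fold lower, where 0.788% of all genes were. The 5 were Ces1c to Ces1g, which lie side by side and are alike in sequence, so they are not 5 separate observations. No other substrate was 2-fold lower. In 6 of the 12, those 5 and Hgsnat, every Xbp1-KO run was below every WT run, which held for 1.79% of the 6598 genes. In 6 the Xbp1-KO level was the lowest of the 5 pools, against 4.59% of 6957 genes, and 6 were among the genes listed lower by edgeR at an unadjusted p under 0.05; none passed the adjustment. The list's median was -0.25 in Nr2f2-KO, -0.94 in Usf1-KO and -0.07 in Tef-KO. The Usf1-KO pool, set against the same WT cells, thus had a list median as low as that of the Xbp1-KO pool. Over all 6598 genes, however, the median log2 fold was -0.32 in Usf1-KO and 0.03 in Xbp1-KO, so the list medians have different backgrounds.

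Bloc1s1 (chromosome 10, 128917882 to 128924035, minus strand), a subunit of a lysosome-positioning complex, stood at 26.5 CPM in Xbp1-KO. The other pools stood at 48.1 (WT), 50.3 (Nr2f2-KO), 37.8 (Usf1-KO) and 56.2 (Tef-KO). The summed pools held 4294 counts in Xbp1-KO (26.6 CPM, exact Poisson interval 25.8 to 27.4) and 6895 in WT (49.99 CPM, 48.8 to 51.2). Its Xbp1-KO runs were 18.4, 24.5, 31.4 and 34.3 CPM and its WT runs 29.3, 54.5 and 53.6. The first WT run and the first Usf1-KO run (26.3) thus overlapped the Xbp1-KO runs, while all runs of Nr2f2-KO (44.8 to 54.5) and Tef-KO (37.9 to 65.99) were higher. The edgeR log2 difference from the 4 pools was -1.0004 ± 0.20 (SE; unadjusted p = 0.00169, edgeR adjusted p = 0.9998), and DESeq2 gave -1.01 (DESeq2 adjusted p = 0.0019). Hgsnat, a lysosomal acetyltransferase (chromosome 8, 25944453 to 25976753, minus strand), was also lowest in Xbp1-KO. It stood at 18.9 CPM in Xbp1-KO, 29.99 in WT and 28.9 to 32.3 in the other knockouts. Its Xbp1-KO runs, 15.4, 16.5, 24.2 and 20.1, were all below the WT runs of 27.1, 26.9 and 34.1, and overlapped 1 Nr2f2-KO run of 22.4. The edgeR difference was -0.85 ± 0.20 (unadjusted p = 0.00503, edgeR adjusted p = 0.9998).

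The carboxylesterases of the Ces1 cluster, ER enzymes that hydrolyse esters and triglycerides, were lower together. Ces1c (chromosome 8, 93099015 to 93131283, minus strand) stood at 819.6 CPM in Xbp1-KO, 1764 in WT, 1540.4 in Nr2f2-KO, 918 in Usf1-KO and 1665 in Tef-KO. Its 4 Xbp1-KO runs were 438, 902, 762 and 1294 CPM and its WT runs 1579, 1454 and 2121, with no overlap. Without the first Xbp1-KO run the log2 fold of Ces1c went from -1.11 to -0.92, short of 2-fold. Ces1d was more even over the runs, at 114.1, 136.3, 156.1 and 161.5 CPM in Xbp1-KO against 276.1, 586 and 210.7 in WT, and each of its 4 values was below every run of the other 4 pools. Pool levels in Xbp1-KO and WT were 37.8 and 90.999 CPM for Ces1e, 135.98 and 298.7 for Ces1f and 102.4 and 215.9 for Ces1g, and no Xbp1-KO run of these 3 genes overlapped a WT run. Ces1b to Ces1g lie side by side (chromosome 8, 93056728 to 93337308) and are alike in sequence. How reads shared between them were counted is not given in the sources used here, so which of them carries a read is uncertain.

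Among the other substrates, Tapbp, which loads peptides onto MHC class I, stood at 76.1 CPM in Xbp1-KO against 93.2 CPM in WT, Cyp2e1 at 3751 against 5275 and Cyp1a2 at 909 against 1098. The cytochromes Cyp2e1 and Cyp1a2 mark cells near the central vein, and the pericentral marker list as a whole was at a summed 12663 CPM in Xbp1-KO and 14851 in WT; its part in these 2 values was not tested.

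**Figure D2:**
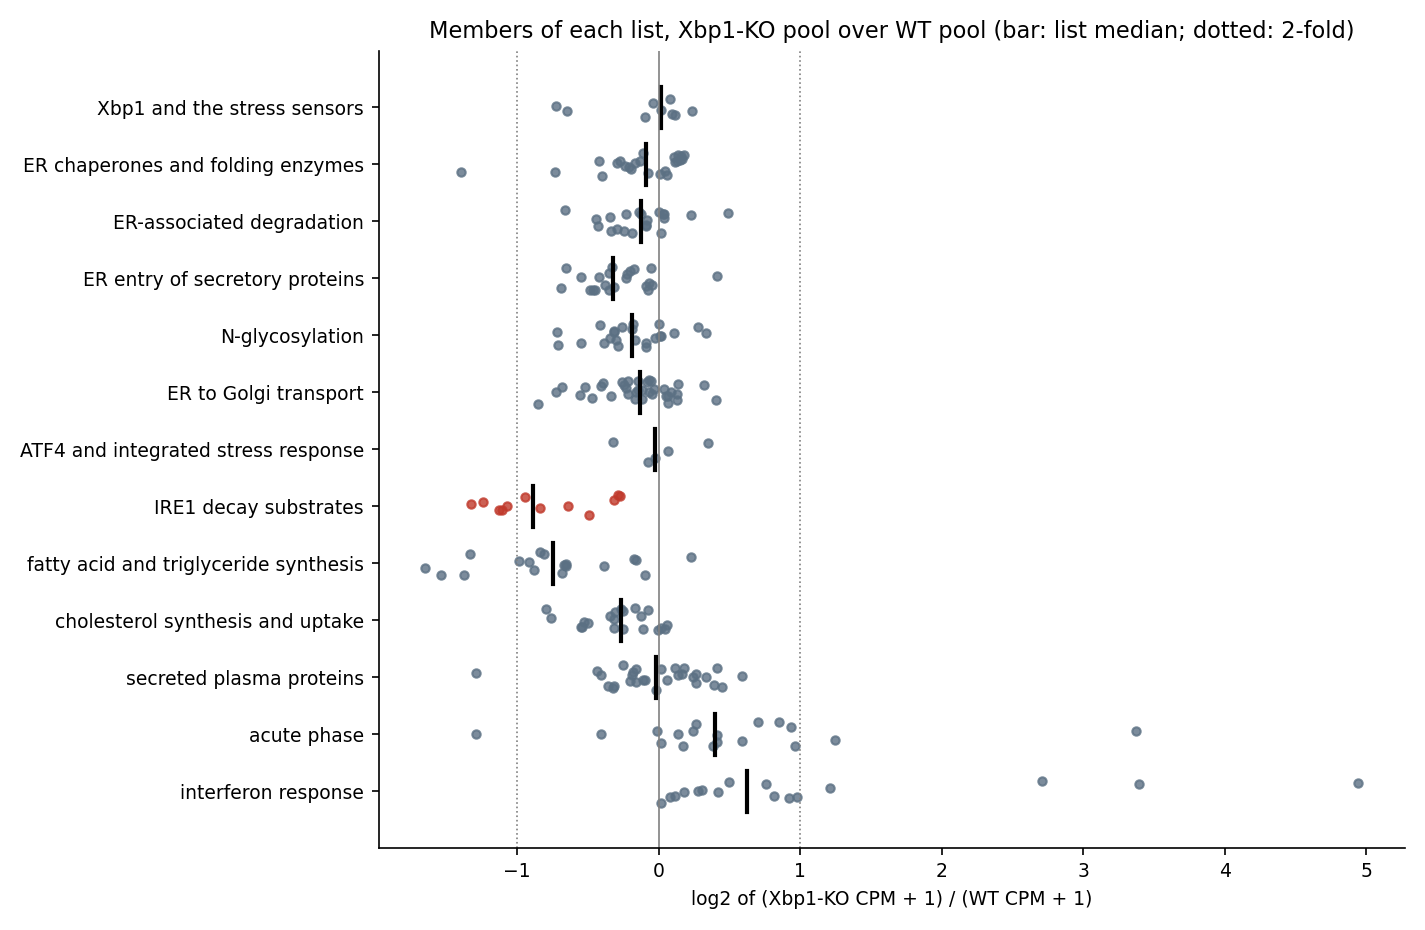
Log2 fold of each compared gene, Xbp1-KO pool over WT pool, by list (points), with the list's median (bars) and the 2-fold limits (dotted lines). All 12 IRE1 decay substrates lie left of 0 with a median of -0.89, while the chaperone list has a median of -0.09 and 1 gene, Dnajb9, beyond 2-fold.

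Chaperones, many of them known targets of XBP1, were near WT as a list. Of 24 compared chaperones and folding enzymes, 13 were below WT and 11 above, with a median log2 fold of -0.09. The list's median was lower in Nr2f2-KO (-0.48) and Tef-KO (-0.50), with 5 genes 2-fold lower in each, and was 0.27 in Usf1-KO. In Xbp1-KO, 1 gene of the list was 2-fold lower, where 0.788% of all genes were. That gene was Dnajb9, a co-chaperone of BiP and a standard XBP1 target (chromosome 12, 44205559 to 44210326, minus strand). It stood at 59.9 CPM in Xbp1-KO and 159.1 in WT. The same gene stood at 52.6 CPM in Nr2f2-KO, 56.7 in Tef-KO and 138.3 in Usf1-KO, so low Dnajb9 was shared by 3 of the 4 knockout pools. Its Xbp1-KO runs were 24.3, 75.9, 36.7 and 116.98 CPM, all below the WT runs; the later 2 WT runs stood at 169.3 and 168.9, and the first lay between them and the highest Xbp1-KO run. It stood at 71.8 CPM in the WT pool labelled P60+14d, and against that pool its log2 fold was -0.26 in place of -1.39. After thinning to 200000 counts, 95.7% of Xbp1-KO cells and 100% of WT cells had a Dnajb9 count (unthinned, 98.1% and 100%).

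Hspa5, the chaperone BiP, stood at 1068 CPM in Xbp1-KO and 959.5 in WT, against 398 in Nr2f2-KO, 459 in Tef-KO and 1224 in Usf1-KO. The pool mean hid a split: its runs were 665, 1492, 591 and 1538 CPM, on both sides of the WT runs of 911 to 999. Creld2, an ER folding factor, divided the same way, at 67.6, 244.8, 80.4 and 383 CPM against 181.2, 214.4 and 188.7, and so did Herpud1 of the degradation machinery, at 185.3, 813, 147.8 and 801 against 735, 489.9 and 609. The numbered runs 2 and 4 were high and runs 1 and 3 low in each of these 3 genes, of which Creld2 was chosen after its values were seen, as were Ces1g, Fads1, Tapbp, Cyp1a2 and Rpn1 among the list members described. Promoters of this list hold the ER stress response element more often than other promoters. The element (CCAAT, 9 bases, CCACG, on either strand) was searched in the 250 bases before each start. It was found for 35 of 27025 genes (0.130%) and for 14 of 5013 compared genes (0.279%). Among the chaperone promoters in the RefSeq table (GRCm38.p6) it was in 7 of 22. The windows of Herpud1 and Dnajb9 held no match to this element. Herpud1 divided by run, and Dnajb9 was also higher in runs 2 and 4 than in runs 1 and 3. A link between the element and the runs was not tested. The next 2 stretches show the element in capitals for Hspa5 and Creld2, Creld2 with the match on the opposite strand.
Hspa5, chr2:34772005-34772063, plus strand: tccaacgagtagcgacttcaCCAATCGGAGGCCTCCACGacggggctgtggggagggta
Creld2, chr15:88819500-88819558, plus strand: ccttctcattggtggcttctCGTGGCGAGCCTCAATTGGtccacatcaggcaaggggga

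The machinery that brings proteins into the ER was slightly lower. Of 22 compared genes of ER entry, 21 were below WT, with a median log2 fold of -0.32, and 0 were 2-fold lower. The medians in Nr2f2-KO, Usf1-KO and Tef-KO were -0.28, -0.12 and -0.26, so a low median was shared with Nr2f2-KO and Tef-KO. That of Usf1-KO lay above its median over all compared genes, -0.32. Of the 22, 10 were lower in Xbp1-KO than in any other pool (4.59% of all genes were), and in 3 every run was below every WT run (1.79% of all genes). The clearest was Ssr4, a subunit of the translocon-associated complex. It stood at 143.1 CPM, against 200.7 in WT, 200.2 in Nr2f2-KO, 193.1 in Usf1-KO and 245.5 in Tef-KO. Its 4 runs were 137.4, 150.3, 139.97 and 140.7 CPM, and the lowest run of any other pool was 162.5. The edgeR log2 difference was -0.69 ± 0.25 (unadjusted p = 0.0299, edgeR adjusted p = 0.9998). The translocon subunits Sec61b (144.6 against 233.3 CPM in WT) and Sec61g (348 against 549.7) were lower than WT as well, but their runs overlapped the first WT run of 162.98 and 344. Medians of the other lists were -0.13 for ER-associated degradation (21 genes), -0.19 for N-glycosylation (23 genes) and -0.13 for ER to Golgi transport (36 genes), with no gene 2-fold lower in any of the 3. The ATF4 list had 5 of its 20 genes at a level that could be compared, with a median of -0.03 and none 2-fold away.

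Lipid synthesis genes were lower, again with the Usf1-KO pool beside them. Of 18 compared genes of fatty acid and triglyceride synthesis, 17 were below WT with a median log2 fold of -0.75, and 4 were 2-fold lower: Thrsp, Lpin1, Scd1 and Elovl6. Of all 6598 genes, 2897 were below WT and 0.788% were 2-fold lower. In 3 of the 18 every Xbp1-KO run was below every WT run, which held for 1.79% of the 6598 genes. The list's medians were -0.21 in Nr2f2-KO, -0.85 in Usf1-KO and -0.33 in Tef-KO. Over all compared genes the median was -0.32 in Usf1-KO and 0.03 in Xbp1-KO. Scd1, the stearoyl-CoA desaturase, stood at 854 CPM in Xbp1-KO, 2219 in WT and 492 in Usf1-KO. Its WT runs were 1282, 4351 and 1018 CPM and its Xbp1-KO runs 782, 791, 1069.9 and 721, so the pools overlapped and a single WT run raised the WT mean. Dgat2, which makes triglycerides and has been described as a target of XBP1 in liver, was lower in Xbp1-KO than anywhere else. It stood at 108.5 CPM, against 174.4 in WT, 206.5 in Nr2f2-KO, 152.9 in Usf1-KO and 265.5 in Tef-KO. Its Xbp1-KO runs of 94.97, 122.7, 96.9 and 116.5 lay below all 12 runs of the other pools, the lowest of which was 133.8. The edgeR log2 difference was -1.003 ± 0.28 (unadjusted p = 0.00947, edgeR adjusted p = 0.9998). Fads1, a fatty acid desaturase, showed the same: 130.1 CPM against 232.996 in WT and 161.2 in Usf1-KO, with runs of 110.2, 117.9, 151.5 and 149.3 below every other run. Every Xbp1-KO run was below all runs of the 4 other pools for 7 of 6957 genes (0.101%), Ssr4, Fads1, Tmem208, Serping1, Fn1, Dgat2 and Ces1d, and above all of them for 16 (0.23%).

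Among genes that stood higher, Rhbg and Serpine2 were even over the pool and Foxq1, Phlda1 and Rsad2 were not. Rhbg, an ammonium transporter of the hepatocytes next to the central vein, stood at 25.1 CPM against 8.76 in WT and 4.17 to 8.13 in the other knockouts, with runs of 20.8, 34.02, 17.2 and 25.5 above all other runs. It belongs to the pericentral list, whose sum was lower in Xbp1-KO than in WT (above). The edgeR log2 difference was 1.73 ± 0.28 (unadjusted p = 0.00065, edgeR adjusted p = 0.9998). Serpine2, a protease inhibitor, behaved alike at 19.05 CPM against 7.69 in WT, with runs from 14.8 to 23.4 against WT runs from 1.08 to 11.5. The transcription factor Foxq1 had a wide gap to the other pools, at 36.6 CPM against 4.07 in WT and at most 9.80 elsewhere, but its runs were 62.2, 6.67, 71.3 and 5.80 CPM. Phlda1, a growth-factor response gene, stood at 107.8, 24.2, 137.5 and 35.3 CPM by run and at 31.9 in WT. Both were high in runs 1 and 3, the runs in which Hspa5 was low. Without run 3 the log2 fold of Phlda1 went from 1.22 to 0.70, and against the P60+14d WT pool (91.3 CPM) it was -0.27. Of 16 compared interferon response genes, 4 were 2-fold higher, Rsad2, Ifit3, Ifit1 and Isg15, where 0.925% of all genes were. The list median was 0.63, against 0.64 in Nr2f2-KO and 0.60 in Tef-KO. In each of those pools 5 genes of the list were 2-fold higher. Of all genes compared there, 2.06% were 2-fold higher in Nr2f2-KO and 2.38% in Tef-KO. Rsad2, an antiviral enzyme, stood at 1.59, 1.93, 230.3 and 3.68 CPM by run, and without run 3 its log2 fold went from 4.94 to 0.60.

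The means above cover a wide spread between single cells. Ces1c was spread wider over the Xbp1-KO cells than over any other pool: the standard deviation of log2(CPM + 1) across cells was 1.88 in Xbp1-KO, 0.43 in WT, 0.87 in Nr2f2-KO, 0.62 in Usf1-KO and 0.51 in Tef-KO. That excess over the next pool, 1.01, was the largest of the 2075 genes with at least 50 CPM in WT; Scd1 (0.84), Ces1d (0.72), Ces1e (0.63), Fads1 (0.63) and Ces1f (0.53) were also among the 13 genes (0.627%) with an excess over 0.5. Over the Xbp1-KO cells, Ces1c ran from 22.9 CPM through a median of 808 to 2577, and over the WT cells from 753 through 1686 to 3386. The spread lay on the low side: 91.8% of the Xbp1-KO cells were below the WT median, 64.7% below the WT 5th percentile and none above the WT 95th. Below the lowest WT cell were 99 cells (47.8%), against 5.45% of the Nr2f2-KO cells, 38.1% of the Usf1-KO cells and 2.38% of the Tef-KO cells.

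A limit of 200 CPM, chosen after these values were seen, shows where the lowest cells were. Below it lay 55 Xbp1-KO cells (26.6%, exact 95% binomial interval 20.7 to 33.1, counting error only) and 0 WT cells, which allows a share of up to 1.83%. The other pools had 3 cells (1.82%) in Nr2f2-KO, 0 of 63 in Usf1-KO, which allows up to 4.76%, and 0 in Tef-KO, which allows up to 2.38%. The Usf1-KO pool, whose Ces1c mean was nearly as low and many of whose cells were below every WT cell, had none under this limit. The Xbp1-KO cells at or above the limit had a median of 989 CPM, and 88.8% of them were below the WT median. By run of the Xbp1-KO pool the low cells numbered 27 of 47, 11 of 72, 16 of 56 and 1 of 32. Bloc1s1 was below 10 CPM in 50 Xbp1-KO cells (24.2%, 18.5 to 30.6) and in 5 WT cells (3.05%), all 5 in the first WT run. Ces1d was below 50 CPM in 63 Xbp1-KO cells (30.4%, 24.2 to 37.2) and in 1 WT cell (0.610%). Dnajb9 was different: it was below 50 CPM in 54.6% of Xbp1-KO cells, 1.83% of WT cells, 54.5% of Nr2f2-KO cells and 46.03% of Tef-KO cells. Low Dnajb9 in single cells was thus common to 3 knockout pools, while Ces1c under 200 CPM was frequent in the Xbp1-KO pool and rare or not seen in the others, a contrast that holds at this limit and not against Usf1-KO at the level of the lowest WT cell.

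**Figure D3:**
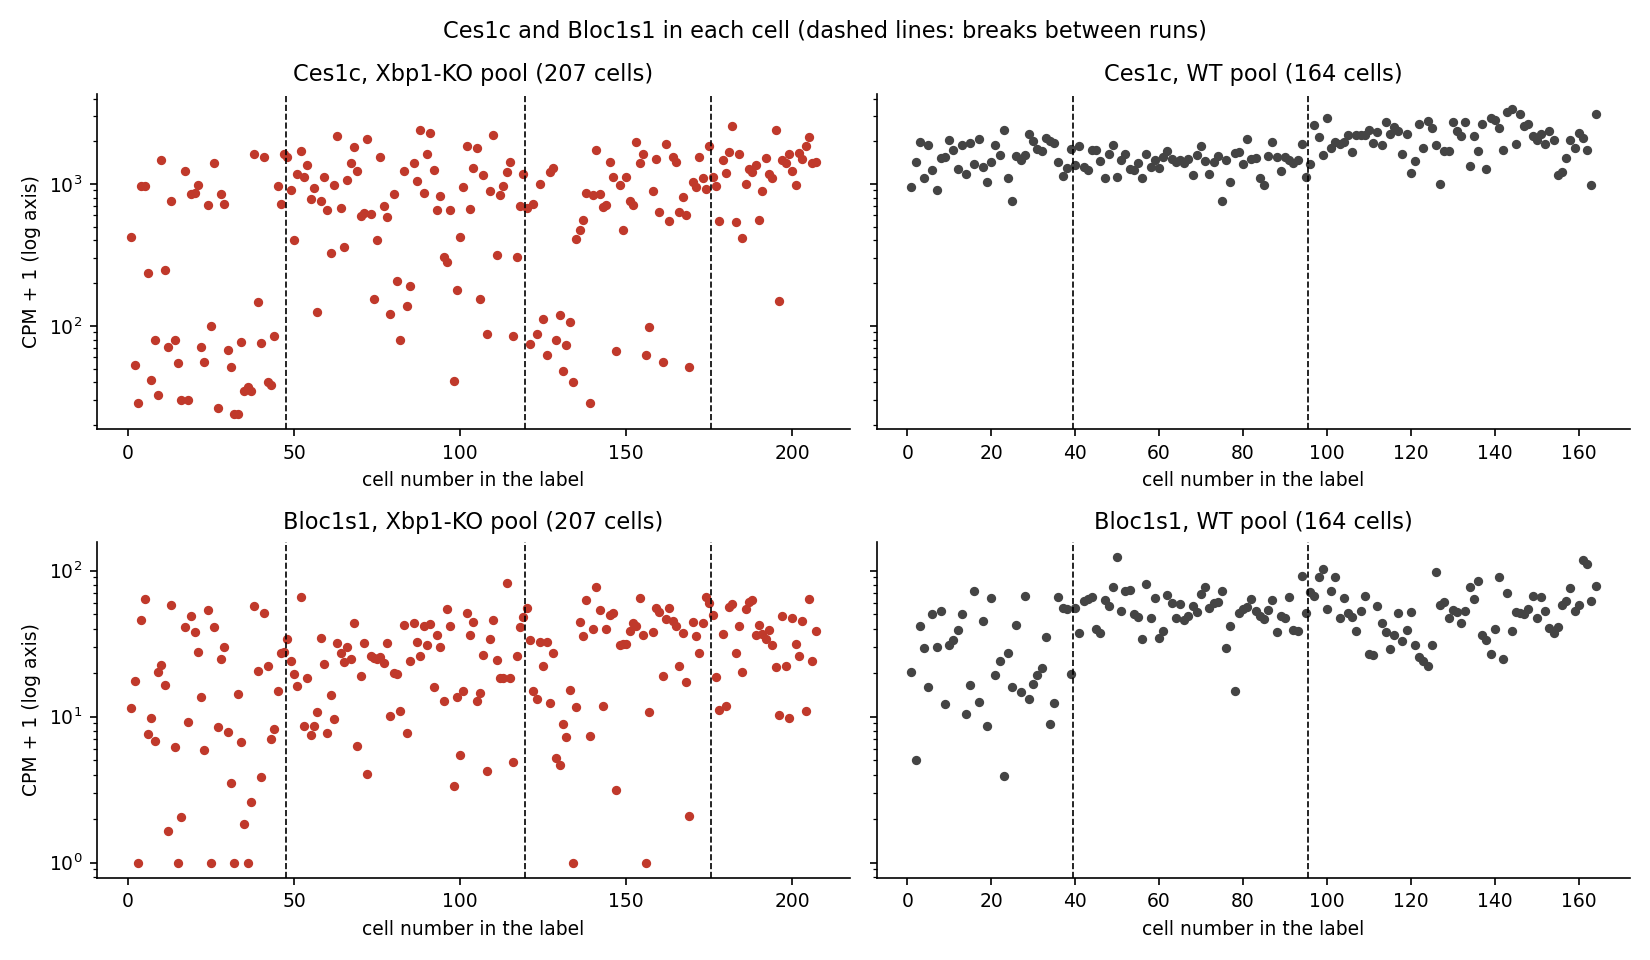
Ces1c and Bloc1s1 in each cell (CPM + 1, log axis) against the cell's number in its label, for the Xbp1-KO pool (red) and the WT pool (grey); dashed lines are the breaks between runs. In the Xbp1-KO pool most Ces1c points overlap the lower part of the WT range or lie under it, and the 55 cells under 200 CPM are most frequent in the first run, where 27 of 47 cells lie there.

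Genes of the secretory pathway ranked with Ces1c from cell to cell in the Xbp1-KO pool. Spearman's rho was taken within each run, so that the breaks between runs do not enter, and the median over runs is given as a description; cells of a pool share their preparation and sequencing, and Ces1c was taken as the reference after its spread was seen. P4hb, the protein disulfide isomerase, had a rho of 0.79, 0.74, 0.77 and 0.56 with Ces1c in the 4 Xbp1-KO runs and 0.03, 0.18 and 0.18 in the 3 WT runs. Bloc1s1 had 0.73, 0.40, 0.66 and 0.22 against -0.24, 0.14 and -0.18. Ces1d ranked with Ces1c in both pools, at 0.83, 0.87, 0.92 and 0.67 against 0.59, 0.52 and 0.39. Cyp2e1 went the other way, with medians of 0.30 in Xbp1-KO and 0.51 in WT.

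The median rank correlation with Ces1c was higher in the Xbp1-KO pool than in WT for each ER list, by different amounts. The median over genes and runs was 0.58 in Xbp1-KO and 0.36 in WT for 8 IRE1 substrates with at least 50 CPM, 0.42 and 0.01 for 12 genes of N-glycosylation, 0.41 and 0.04 for 19 of ER entry, 0.37 and 0.16 for 14 of ER-associated degradation, 0.28 and 0.15 for 19 chaperones and 0.24 and 0.13 for 25 genes of ER to Golgi transport. For all 2074 genes it was -0.02 and 0.10. The 8 substrates include Ces1d to Ces1g, which lie beside Ces1c and are alike in sequence. How reads shared between these genes were counted is not given, and their part in the substrate medians was not tested. In N-glycosylation, 6 of 12 genes had a higher rho in every Xbp1-KO run than in any WT run, among them Rpn1 (0.70, 0.71, 0.61 and 0.43 against 0.15, 0.11 and 0.06), in ER entry 7 of 19, in degradation 3 of 14, among chaperones 3 of 19 and in ER to Golgi transport 3 of 25. Over all 2074 genes this held for 5.79%, and among secreted plasma proteins, a list outside the ER machinery, for 9 of 29, with medians of 0.07 and -0.16. Lipid lists outside the ER machinery were higher in Xbp1-KO as well. The genes of fatty acid synthesis had medians of 0.32 and 0.10, and Fads1 alone had 0.61 and 0.04. The 11 genes of cholesterol synthesis and uptake had 0.36 and 0.07, a higher Xbp1-KO median than that of the chaperones. In Nr2f2-KO, Usf1-KO and Tef-KO the ER entry median was 0.10, 0.26 and -0.01. Hspa5 had a median of 0.30 in Xbp1-KO and 0.14 in WT, near the chaperone medians of 0.28 and 0.15. Xbp1 mRNA had a rho with Ces1c over all cells of 0.11 in Xbp1-KO and 0.22 in WT.

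**Figure D4:**
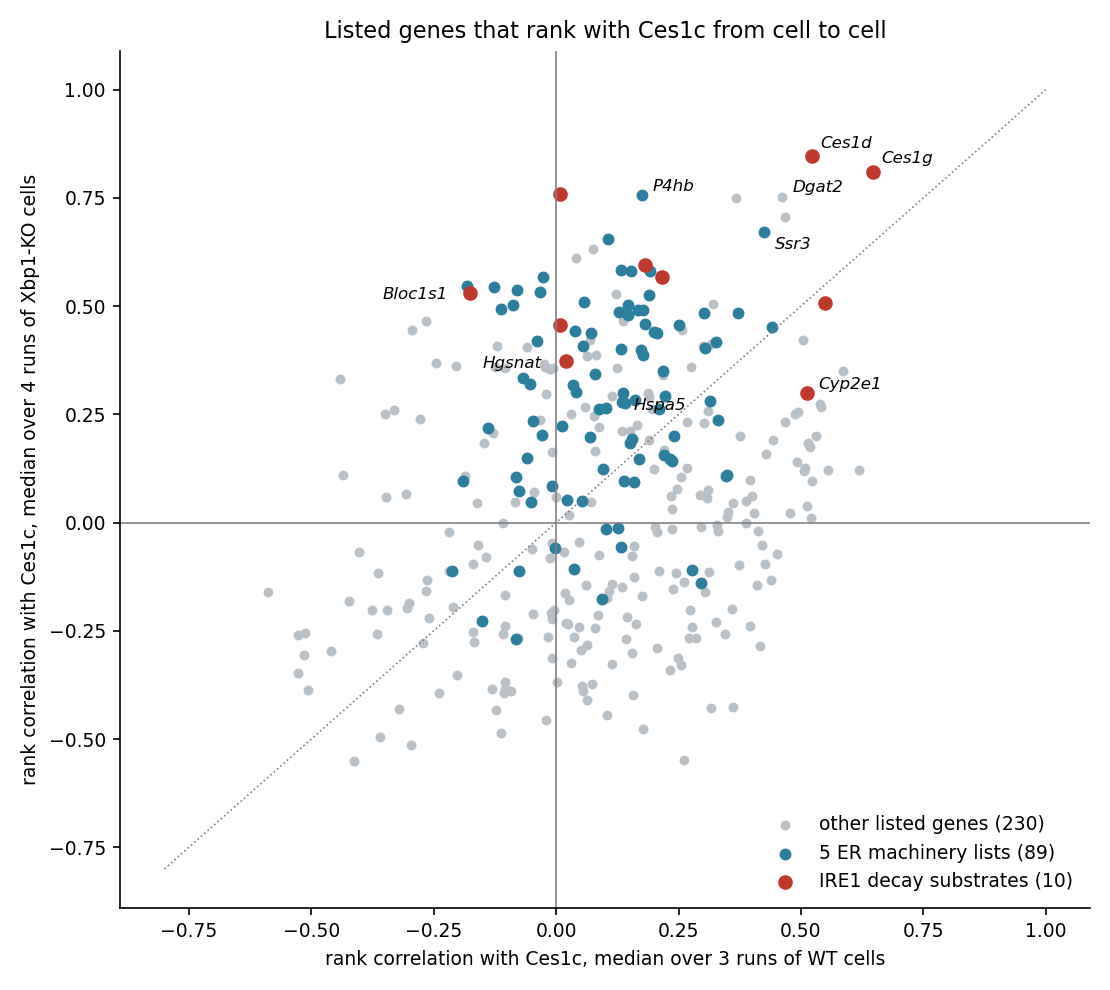
Spearman's rho with Ces1c of listed genes, as the median over the 3 WT runs (x axis) and over the 4 Xbp1-KO runs (y axis), with the diagonal dotted. The genes have at least 50 CPM in WT, except Bloc1s1 and Hgsnat, which are shown in addition and bring the substrates from 8 to 10. The substrates include Ces1d to Ces1g, neighbours of Ces1c that are alike in sequence. The 89 genes of the 5 ER machinery lists have medians of 0.13 in WT and 0.28 in Xbp1-KO, the 10 IRE1 substrates 0.20 and 0.55, and the 230 other listed genes 0.09 and -0.05.

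Depth, ribosomal protein genes and position in the lobule moved with Ces1c too. Over all cells its rho with counts per cell was -0.29 in Xbp1-KO and -0.08 in WT, and with the summed pericentral markers 0.31 and 0.47. With the summed periportal markers it was 0.16 in Xbp1-KO and -0.43 in WT. The summed ribosomal protein genes ran against Ces1c, Ces1d and Bloc1s1 in the Xbp1-KO cells (rho of -0.30, -0.39 and -0.30) and not in the WT cells (0.08, 0.34 and 0.39). With depth held, the rho of Ces1d with Ces1c over all Xbp1-KO cells was 0.87 (0.86 without) and that of P4hb 0.71 (0.73 without). The part of lobule position and of the ribosomal protein genes was not tested.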

How the data were processed

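The data are Smart-seq3 libraries of single mouse hepatocytes, picked one by one per the labels' protocols. The authors deposited whole-number read counts per gene and cell, the unit used here; the submitters' processing notes name HISAT2 2.1.0, Trimmomatic 0.39, HTSeq 0.6.0, featureCounts 1.5.3 and 2.0.0 and the build GRCm38 with no role, and how shared reads or strand were handled is not given in the sources used here. The table holds 40824 genes in 1226 cells of 8 pools, of which 207 are Xbp1-KO, 164 WT, 165 Nr2f2-KO, 63 Usf1-KO and 126 Tef-KO at P12+40d, and its 92 spike-in entries, with 41 counts in all, were left out. No cell was removed: each had at least 200000 counts, no 2 cells had identical columns, and no doublet caller was run on cells that were picked singly.

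CPM was computed per cell and averaged over a pool's cells. A gene was compared at a mean of at least 10 CPM in either pool, with a pseudocount of 1 CPM, and 2-fold was the limit for a count (61 of 6598 genes higher and 52 lower; 177 and 87 of 11205 when 1 CPM sufficed; 179 and 157 of 6725 against the WT pool labelled P60+14d). Labels name no animal, so the pools are 1 sample each and Xbp1-KO against WT is a description. Counts summed per pool were tested with edgeR 4.0.16 (quasi-likelihood, TMM, filterByExpr, Benjamini-Hochberg, two-sided, adjusted p under 0.05), 1 pool against 4; DESeq2 1.42.0 was the alternative. At an unadjusted p under 0.05, edgeR listed 105 genes higher and 94 lower. Any p measures the spread between pools that carry other labels. The fit was tested on simulated data. At a biological coefficient of variation of 0.335, that of the pools, it missed nearly all genes changed 2-fold and most of those changed 4-fold. Shares of cells have exact 95% Clopper-Pearson intervals and were also taken after thinning each cell to 200000 counts; a count of 0 allows 3 counts. Intervals cover counting error only.

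Runs of cell numbers were found from 100 genes, with at least 10 cells and 2% of rank variance per break. The runs, Ces1c as reference for correlations and the limits of 200, 10 and 50 CPM were chosen after values were seen. Members and gene lists were chosen with earlier results of these data known. Named genes were the members of the sensor list; of other lists, up to 4 with the largest fold and 2 with the highest WT level; the 15 highest and 15 lowest folds; the 12 highest and 12 lowest by the gap to the nearest of the 4 other pools; and check genes. Sequences came from GENCODE M21 and RefSeq (GRCm38.p6). Python 3.11.15, numpy 2.4.6, pandas 2.3.3, scipy 1.17.1 and R 4.3.3 were used. Some members of the lists are not reported here by name.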

Additional observations from a re-analysis of the deposited data

How the results depend on the processing

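The shares of compared genes at least 2-fold higher and lower than WT, 0.925% and 0.788%, became 1.58% and 0.776% when a level of 1 CPM sufficed, where the number of lower genes went from 52 to 87. Against the WT pool labelled P60+14d they were 2.66% and 2.33%, with 34 and 32 of the genes shared. Leaving out each run of Xbp1-KO cells, an alternative chosen after the data were seen, gave 56 to 89 higher and 44 to 65 lower genes. The 7 genes above and 1 below all other pools became 12 above with summed CPM and 0 below with a pseudocount of 5 CPM. Leaving out each other pool gave 8 to 31 above, 31 of them without the WT pool, and 2 to 13 below. The edgeR count of 0 higher and 0 lower became 7 and 2 with DESeq2, and 0 to 1 higher and 0 lower when each other pool was left out (without Nr2f2-KO, Gm4737). The share of Xbp1-KO cells with a Bloc1s1 count was 90.3% thinned to 200000 counts, 96.6% unthinned and 81.2% at 100000, and that of Dnajb9 was 95.7% and 98.1% unthinned. Against the P60+14d WT pool the log2 fold of 6 genes changed sign: Cyp4a14 to -0.90, Cyp4a10 to -2.54, Apcs to 0.065, Eif3j2 to -0.38, Prtn3 to 1.48 and Phlda1 to -0.27. For each of these the cause was not tested. TMM and DESeq2 scaling moved the median log2 fold from 0.03 to -0.03 and -0.05 and the lower genes from 52 to 71 and 72, with 61 higher throughout, so that the higher genes went from 53.98% of those past 2-fold to 46.2% and 45.9%. Of the settings for single genes, 346 moved by under 0.1 on the log2 scale or kept their side of the threshold, 5 became stronger, 6 changed sign and 48.1% of the 688 moved further without a change of sign. No paired analysis was possible because the replicate numbers in the labels are cell numbers and the cells of a pool are summed. The spread between the 5 pools, a biological coefficient of variation of 0.335, limits the edgeR comparison, and the limit set by depth was not tested.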

Other observations

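The acute phase genes Saa1 and Saa3 differed between runs of the Xbp1-KO pool as well as between pools. Saa1, a serum amyloid protein made by the liver in inflammation, stood at 15815 CPM in Xbp1-KO and 8791 in WT, with runs of 4167, 25335, 4910.4 and 30583 in Xbp1-KO and 20661, 553 and 8767 in WT. Saa3 stood at 289.3 CPM in Xbp1-KO, with runs of 46.5, 567, 24.4 and 485, and at 26.96 in WT. Both were high in runs 2 and 4. In the other pools Saa1 stood at 2593 CPM (Nr2f2-KO), 93596 (Usf1-KO) and 672 (Tef-KO). Over 18 compared acute phase genes the median log2 fold was 0.40 in Xbp1-KO, -0.06 in Nr2f2-KO, 1.72 in Usf1-KO and -0.51 in Tef-KO.

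The heat shock protein Hspb1 stood at 29.7 CPM in Xbp1-KO, with runs of 17.9, 50.6, 11.3 and 32.5, and at 8.27 in WT. Cyp2c44, a cytochrome, stood at 61.2 CPM with runs of 17.3, 107.7, 10.9 and 109.3, and at 187.1 in WT. Rgs16, a regulator of G protein signalling, stood at 2.97 CPM in Xbp1-KO and 21.1 in WT, where its runs were 1.38, 11.7 and 39.9. The circadian genes Nr1d2 and Per3 were the 2 of 13 compared clock genes at least 2-fold lower than WT, where 0.788% of all genes were. Against the same WT pool, 1 clock gene was 2-fold lower in Nr2f2-KO, 4 in Usf1-KO and 3 in Tef-KO. Every Xbp1-KO run was below every WT run in 0 of the 13.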
